A study of Mus musculus with 48 samples.

Results

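Left kidneys taken 3 days after mild ischemia were compared with left kidneys taken 1 day after it, which follows the mild model into recovery. The members are the 12 left-kidney libraries labelled as 20 minutes of ischemia, 6 of day 1 and 6 of day 3, out of 48 libraries in the series. All mice were C57BL/6 males aged 6 to 8 weeks, and the left renal pedicle was clamped for 20 minutes (mild) or 40 minutes (severe) and then released. From each mouse the cortex of the left (IRI) kidney and of the right (self-control) kidney was sequenced, on day 1 or day 3, with 6 kidneys in each of the 8 groups. The groups used here are the 20-minute left and right kidneys and the 40-minute left kidneys of both days. Day 1 and day 3 are different mice, so each p-value for a difference between the days measures the spread between mice. The right kidneys carry the day of their mouse in the labels, while the methods place their removal ahead of clamping, so when they were taken cannot be told.

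After a short stop of blood flow, proximal tubule cells lose transport and oxidative functions, and surviving cells enter the cell cycle to replace those that were lost. As a tubule recovers, replication genes can be turned off again and the use of fatty acids as fuel, which the transcription factor PPARA controls, can rise. Sterol synthesis, which the SREBP factors drive, supplies membrane for dividing cells. The kidney also has a circadian clock, whose activator and repressor arms peak at opposite times of the day, so that clock genes depend on the hour of sampling.

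Expression was given by the authors as FPKM, the fragments of a transcript scaled by its length and by the size of the library, and was summed here per gene symbol. Differences are of the mean log2(FPKM + 0.01), day 3 minus day 1, with the standard error and a Benjamini-Hochberg adjusted p from limma. Genes with an adjusted p below 0.05 whose levels differed by 2-fold or more are termed called. The FPKM of the 12 libraries summed to 389704 to 421059, and 11099 to 12210 genes reached 1 FPKM. The numbers of reads are not known. Kidney cortex markers were present in every library. Slc34a1, the phosphate carrier of the proximal tubule, lay between 648 and 1388 FPKM, Umod of the thick ascending limb between 549 and 1185, and Aqp2 of the collecting duct between 56.8 and 228. In whole cortex, fewer cells of a type and less RNA per cell cannot be told apart.

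Both groups held a kidney that went against its label. Among genes that averaged 1 FPKM or more, 2041 had values that did not overlap between the days in the other 10 kidneys. Of these, day 1 replicate 6 lay nearer to its own day in 158 (7.74%) and day 3 replicate 4 in 410 (20.1%). The same share, taken in turn for each of the other 10 kidneys with the genes that separated the remaining 9, was between 58.7% and 92.3%. Over the 11763 genes at this level, in deviations from the mean of the 12 kidneys, day 1 replicate 6 had a median correlation of -0.356 with its own day and 0.226 with the other day, and for day 3 replicate 4 the medians were -0.307 and -0.0413. Day 1 replicate 6 had the day 3 pattern in replication, clock and fatty acid genes, and day 3 replicate 4 had high injury genes. Limma array weights, which lower the weight of libraries far from their group, were 0.319 and 0.318 for these 2 kidneys and 0.657 to 2.31 for the others. A mix-up of labels was not tested. The main results are given with all 12 kidneys and without these 2. Since the 2 were chosen on these values, larger counts without them are no independent evidence.

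With all 12 kidneys, 0 of 14271 genes were called (percent called 0 in each direction), and the lowest adjusted p was 0.136 in limma. At an unadjusted p under 0.05, 437 genes were higher on day 3 (3.06%) and 1408 were lower (9.87%). After each library was scaled to the same median, the counts became 761 and 962. Array weights gave 118 higher (0.827%) and 273 lower calls (1.91%). Without both kidneys that stood apart, 163 genes were called higher (1.14%) and 486 lower (3.41%) of 14264, or 205 and 312 after scaling. Without day 1 replicate 6 alone, 36 were higher and 151 lower. The 6 kidneys of one day lay wholly above those of the other for 21 genes higher on day 3 (0.147%) and 56 lower (0.392%). Without the 2 kidneys that stood apart the days were separate for 505 genes higher (3.54%) and 1755 lower (12.3%).

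The smallest p-values belonged to Arhgef39, an exchange factor for small GTPases, and Cish, a STAT5-induced inhibitor of cytokine receptor signaling, which were named after their values were seen. Arhgef39 (ENSMUSG00000051517.14, chromosome 4 of GRCm38, 43496142 to 43499695, minus strand) ranged from 1.82 to 3.45 FPKM on day 1 with a median of 2.90, and from 0.412 to 1.11 with a median of 0.803 on day 3. Cish (ENSMUSG00000032578.7, chromosome 9, 107296026 to 107302784, plus strand) ranged from 0.909 to 2.29 FPKM with a median of 1.78, and from 4.20 to 8.62 with a median of 4.67. The days did not overlap for either gene. The differences were -1.90 ± 0.29 and 1.69 ± 0.26 (SE, n = 6 kidneys a day, adjusted p = 0.136 for both in limma). Without both kidneys that stood apart they were -2.06 (adjusted p = 0.00311) and 1.85 (0.00299). In the right kidneys Cish covered 1.24 to 12.1 FPKM over both days, a range that held every left kidney of day 3 and all but the lowest of day 1, replicate 5 at 0.909. Kctd17, also named after its values were seen, did not overlap either, at 5.53 to 9.83 FPKM on day 1 and 9.98 to 17.6 on day 3 (0.89 ± 0.16, adjusted p = 0.289).

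Genes of DNA replication and the cell cycle stood higher on day 1 than on day 3 in most kidneys. Of the 34 cell cycle genes tested, 32 had a difference below 0, beside 9271 of all 14271 genes. An unadjusted p under 0.05 was found for 15, all lower on day 3, where 9.87% of all genes did so. Their median difference was -0.97, and that of all 14271 genes was -0.10. With array weights 12 were called lower, beside 1.91% of all genes. Without both kidneys that stood apart 13 were, beside 3.41% of all genes. The median was then -1.30 for the list and -0.17 for all genes.

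Mcm5 (ENSMUSG00000005410.6, chromosome 8, 75109569 to 75128439) encodes a subunit of the helicase that opens DNA at replication origins. Its promoter is shown because the E2F factors that switch on replication genes are known to bind sites of this kind. The window runs from 250 bases before to 50 bases after the RefSeq start (GRCm38.p6, chr8:75109259-75109558, plus strand), and capitals mark 2 overlapping matches to TTTNNCGC on opposite strands, at 153 and 149 bases before the start.
Mcm5: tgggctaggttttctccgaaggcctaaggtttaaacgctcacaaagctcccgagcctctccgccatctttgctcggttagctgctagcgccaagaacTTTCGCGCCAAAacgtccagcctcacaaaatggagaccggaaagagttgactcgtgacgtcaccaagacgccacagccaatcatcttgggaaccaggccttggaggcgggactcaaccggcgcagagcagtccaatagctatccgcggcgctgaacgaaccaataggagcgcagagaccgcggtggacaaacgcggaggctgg
The same letters, searched on both strands, were found in 6 of the 27 cell cycle members with a window (22.2%) and in 5.27% of 27025 RefSeq windows of this length. A match is a description of letters, not of a bound site.

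Mcm5 ranged from 0.462 to 20.9 FPKM on day 1 with a median of 12.6, and from 0.166 to 9.46 with a median of 1.16 on day 3. Day 1 replicate 6 was the lowest of its day and the other 5 held 5.83 or more, while day 3 replicate 4 was the highest of its day and the other 5 held 1.53 or less. The difference was -2.60 ± 1.00 (adjusted p = 0.322, exact two-sided permutation p = 0.0563 over 924 splits of the kidneys), and -3.98 ± 0.56 without these 2 (adjusted p = 0.00258). The right kidneys lay between 1.33 and 2.44 FPKM on both days.

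The same order of kidneys was seen in other genes of the G1 to S transition. Ccnd1, the cyclin that carries cells out of rest, ranged from 25.6 to 130.2 FPKM on day 1 (median 99.7) and from 29.3 to 82.0 on day 3 (median 39.5), with a difference of -1.02 ± 0.37 (adjusted p = 0.315) and of -1.56 ± 0.14 without both kidneys (adjusted p = 0.000331). Ccne2, a cyclin of S phase entry, had medians of 2.69 and 0.646 FPKM (-1.59 ± 0.50, adjusted p = 0.30). Cdc6, which loads the helicase onto origins, had medians of 1.14 and 0.0174 FPKM. Dtl, which directs the breakdown of the licensing factor Cdt1, held 1.17 to 4.32 FPKM in 5 kidneys of day 1 and was listed at 0 in replicate 6. On day 3 it was listed at 0 in 5 kidneys and held 2.38 FPKM in replicate 4, and all 12 right kidneys were listed at 0. The 2 kidneys that stood apart thus took opposite places in each of these genes.

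Enzymes of nucleotide supply also had higher medians on day 1. Tk1, thymidine kinase, ranged from 1.32 to 18.6 FPKM on day 1 (median 11.05) and from 0.733 to 4.61 on day 3 (median 2.13), with a difference of -1.90 ± 0.63 (adjusted p = 0.303) and of -2.65 ± 0.46 without both (0.00555). Rrm2, a subunit of ribonucleotide reductase, had medians of 14.96 and 5.89 FPKM and did not pass without both kidneys (-1.48 ± 0.49, adjusted p = 0.0585). Mki67, a marker of cycling cells, ranged from 0.847 to 6.22 FPKM on day 1 and from 0.738 to 2.48 on day 3 (-0.76 ± 0.53, adjusted p = 0.533), and Plk1, a mitotic kinase, had medians of 0.965 and 0.926 FPKM (-0.04 ± 0.43, adjusted p = 0.978). The values of both overlapped widely, and for Plk1 the sign turns with scaling or weights. Top2a, which untangles DNA before mitosis, had medians of 3.82 and 1.63 FPKM (-1.01 ± 0.58, adjusted p = 0.464).

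Genes of cholesterol synthesis had lower medians on day 3 as well. Of 24 genes of cholesterol and lipid synthesis tested, 23 lay below 0, beside 9271 of all 14271 genes. With an unadjusted p under 0.05, 19 were lower on day 3, beside 9.87% of all genes. The median difference was -0.65 with all kidneys and -0.85 without both that stood apart. Without both, 9 were called lower, beside 3.41% of all genes, and array weights called 8 lower, beside 1.91%.

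Hmgcs1 makes HMG-CoA, the substrate of the rate-limiting step. Its window (GRCm38.p6, chr13:119690101-119690400, plus strand) is shown because SREBP sites of this type are known in the family, and capitals mark the single match to TCACNCCAC, 137 bases before the RefSeq start.
Hmgcs1: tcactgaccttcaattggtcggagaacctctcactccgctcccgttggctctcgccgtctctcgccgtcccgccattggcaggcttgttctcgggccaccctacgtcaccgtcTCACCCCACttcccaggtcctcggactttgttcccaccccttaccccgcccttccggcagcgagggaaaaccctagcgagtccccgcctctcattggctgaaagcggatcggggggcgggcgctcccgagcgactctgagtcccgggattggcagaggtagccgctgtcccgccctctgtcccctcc
These letters were found in 1 of 15 list members with a window (6.67%) and in 1.22% of all windows. Hmgcs1 itself ranged from 110.4 to 222 FPKM on day 1 (median 187) and from 111 to 159 on day 3 (median 122), a difference of -0.38 ± 0.17 (adjusted p = 0.38).

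Idi1, an isomerase early in the pathway, ranged from 6.01 to 46.8 FPKM on day 1 with a median of 24.6. On day 3 it ranged from 5.47 to 11.5 with a median of 7.77, and the highest value was that of replicate 4. The difference was -1.36 ± 0.41 (adjusted p = 0.30, exact permutation p = 0.0216, two-sided), and -1.82 ± 0.30 without both kidneys (adjusted p = 0.00483). Without the 2 kidneys the lowest day 1 value was 12.4 and the highest day 3 value 8.46 FPKM. The right kidneys held 25.8 to 59.1 FPKM over both days, so every left kidney of day 3 lay below every control. Sqle, which starts the closure of the sterol ring, had medians of 36.3 and 15.3 FPKM, and day 3 replicate 4 stood at 45.8 beside 14.0 to 18.2 in the other 5.

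Sc5d, a late desaturase of the pathway, was the member whose days did not overlap with all 12 kidneys. It held 10.2 to 13.2 FPKM on day 1 and 7.99 to 9.03 on day 3, a difference of -0.47 ± 0.09 (adjusted p = 0.289). The factors Srebf1 and Srebf2 had medians of 7.24 and 3.56, and of 17.1 and 10.6 FPKM. Acly, which supplies acetyl-CoA, was the member above 0 and had medians of 49.3 and 49.8 FPKM.

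Fatty acid oxidation genes stood the other way. Of 29 PPARA targets and oxidation genes tested, 26 lay above 0, beside 5000 of all 14271 genes. An unadjusted p under 0.05 was found for 16, all higher on day 3, where 3.06% of all genes did so. The median difference was 0.61 with all 12 kidneys and 0.91 without both that stood apart. Array weights called 12 higher and 0 lower, beside 0.827% and 1.91% of all genes. Leaving out both kidneys called 13 higher and 0 lower, beside 1.14% and 3.41% of all genes. Ppara itself had medians of 15.2 and 18.8 FPKM (0.17 ± 0.16, adjusted p = 0.644).

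Cyp4a14, a fatty acid omega-hydroxylase (ENSMUSG00000028715.2, chromosome 4, 115486200 to 115496142, minus strand), ranged from 151 to 1634 FPKM on day 1 with a median of 251. On day 3 it ranged from 358 to 1545 with a median of 1384. Replicate 6 was the highest of day 1 (the other 5 held 151 to 584) and replicate 4 the lowest of day 3 (the others 1112 to 1545), so the days were separate without them. The difference was 1.69 ± 0.56 (adjusted p = 0.303, exact permutation p = 0.0303, two-sided), and 2.47 ± 0.31 without both (adjusted p = 0.00174). The right kidneys held 36.6 to 77.9 FPKM. Cyp4a10 behaved in the same way, with medians of 357 and 1139 FPKM (1.01 ± 0.42, adjusted p = 0.343), and as the family shares sequence, reads could be split between its members.

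Pdk4, a kinase that shuts pyruvate out of the citric acid cycle, had medians of 6.57 FPKM on day 1 and 45.0 on day 3. Day 1 replicate 6 held 54.9 FPKM and day 3 replicate 4 held 21.3, and the other kidneys held 12.6 or less on day 1 and 39.5 to 141 on day 3. The difference was 2.32 ± 0.58 (adjusted p = 0.30), and 3.06 ± 0.36 without both (adjusted p = 0.00149). The right kidneys held 4.76 to 18.7 FPKM. Acot2, a mitochondrial thioesterase, ranged from 18.1 to 25.3 FPKM in 5 kidneys of day 1 and stood at 86.3 in replicate 6. On day 3 it ranged from 51.8 to 87.0 in 5 kidneys and stood at 29.9 in replicate 4.

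Ehhadh, an oxidation enzyme of the peroxisome, had medians of 261 and 756 FPKM (1.08 ± 0.40, adjusted p = 0.315), and Cpt1a, the gate to mitochondrial oxidation, 108 and 171 (0.37 ± 0.20, adjusted p = 0.442). The lipid uptake gene Cd36 had medians of 120.1 and 133 FPKM and a difference of -0.02 ± 0.15.

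Fabp1, the fatty acid binding protein of liver and proximal tubule, is a known PPARA target. Its window (GRCm38.p6, chr6:71199629-71199928, plus strand) is shown because it holds the one match among the list to the DR1 motif (AGGNCA, any base, AGGNCA), a repeat of the kind that PPARA binds, 67 bases before the RefSeq start and on the minus strand (capitals).
Fabp1: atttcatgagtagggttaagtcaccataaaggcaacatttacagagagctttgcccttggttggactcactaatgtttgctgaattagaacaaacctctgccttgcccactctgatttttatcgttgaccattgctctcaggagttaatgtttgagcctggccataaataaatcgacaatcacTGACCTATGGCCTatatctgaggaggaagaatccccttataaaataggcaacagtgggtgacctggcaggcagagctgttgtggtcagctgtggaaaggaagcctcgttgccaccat
The letters were in 1 of 20 members with a window (5%) and in 0.381% of all windows. Fabp1 ranged from 1.40 to 8.84 FPKM on day 1 (median 3.79) and from 3.32 to 40.5 on day 3 (median 11.6), and the days overlapped. The difference was 1.65 ± 0.62 (adjusted p = 0.316) and 2.26 ± 0.57 without both kidneys (adjusted p = 0.0215). The right kidneys held 0 to 0.931 FPKM.

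**Figure D1:**
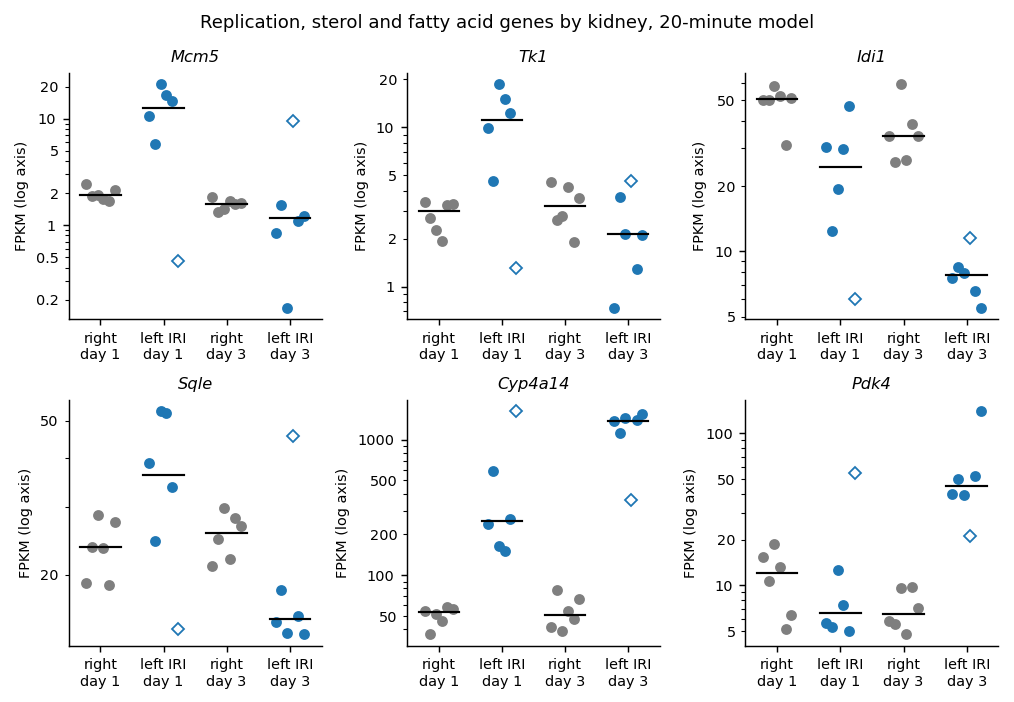
FPKM on a log axis of 6 genes in each right and left kidney of the 20-minute model on days 1 and 3 (points: single kidneys, lines: medians of 6, open diamonds: day 1 replicate 6 and day 3 replicate 4). For Mcm5, Tk1, Idi1 and Sqle the day 1 left kidneys lie above those of day 3 apart from the diamonds, and for Cyp4a14 and Pdk4 they lie below (Cyp4a14 medians 251 and 1384, Pdk4 medians 6.57 and 45.0).

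Clock genes had differences between the days in both directions. Of 19 tested, 3 had an unadjusted p under 0.05 and were higher on day 3, and 6 were lower, against 3.06% and 9.87% of all genes. Array weights called 3 higher and 4 lower, beside 0.827% and 1.91% of all genes. Leaving out both kidneys called 3 higher and 5 lower, beside 1.14% and 3.41% of all genes. The hour at which each mouse was killed is not in the labels.

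Dbp, a PAR bZIP factor driven directly by the clock (ENSMUSG00000059824.12, chromosome 7, 45705088 to 45710203), ranged from 4.21 to 48.1 FPKM on day 1 with a median of 40.9. Replicate 6 was the low one, and the other 5 lay between 39.6 and 48.1. On day 3 it ranged from 2.23 to 27.7 with a median of 6.90, and replicate 4 was the high one. The difference was -1.91 ± 0.66 (adjusted p = 0.31, exact permutation p = 0.0346, two-sided), and -2.83 ± 0.35 without both (adjusted p = 0.00165).

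Ciart (ENSMUSG00000038550.10, chromosome 3, 95878503 to 95882251, minus strand) encodes a repressor of the clock. Its window (GRCm38.p6, chr3:95882179-95882478, minus strand) is printed because it holds 3 copies of the E-box CACGTG (capitals), the letters that the CLOCK and BMAL1 activator recognizes, at 116, 58 and 44 bases before the RefSeq start.
Ciart: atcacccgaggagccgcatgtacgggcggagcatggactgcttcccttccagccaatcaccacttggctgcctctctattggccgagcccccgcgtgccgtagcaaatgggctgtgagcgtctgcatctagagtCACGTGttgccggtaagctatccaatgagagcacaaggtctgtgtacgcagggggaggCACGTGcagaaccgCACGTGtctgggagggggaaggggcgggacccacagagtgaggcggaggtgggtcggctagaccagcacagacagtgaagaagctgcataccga
An E-box was found in 5 of 16 clock genes with a window (31.2%) and in 7.24% of all windows. Ciart ranged from 0.902 to 10.6 FPKM on day 1 (median 7.17) and from 0.355 to 2.40 on day 3 (median 1.02). The difference was -2.35 ± 0.60 (adjusted p = 0.30), and -3.10 ± 0.40 without both kidneys (adjusted p = 0.00191).

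The activator arm had the opposite order. Arntl, which encodes BMAL1, held 1.27 to 1.80 FPKM in 5 kidneys of day 1 and 9.51 in replicate 6, and 4.92 to 9.97 in 5 kidneys of day 3 and 1.80 in replicate 4. The difference was 1.40 ± 0.51 (adjusted p = 0.315), and 2.16 ± 0.19 without both (adjusted p = 0.000296). Npas2, a partner of BMAL1, had medians of 0.777 and 2.98 FPKM (1.45 ± 0.61, adjusted p = 0.345), and Nfil3, a repressor of Dbp targets, 2.58 and 7.68 (1.33 ± 0.48, adjusted p = 0.315). Per3 had medians of 5.66 and 2.05 (-1.09 ± 0.35, adjusted p = 0.301) and Per2 of 6.21 and 2.86 (-0.86 ± 0.30, adjusted p = 0.312), while Per1 had 10.1 and 9.19 and Nr1d1, the repressor REV-ERB alpha, 23.0 and 22.7, with wide overlap.

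In the right kidneys the medians of Dbp and Arntl had the opposite order of days, with a Dbp difference of 2.68 ± 0.63 (adjusted p = 0.138). Dbp lay between 2.75 and 3.87 FPKM in day 1 controls 1 to 4, at 37.4 and 26.8 in controls 5 and 6, and between 34.4 and 57.1 in the day 3 controls. Arntl was 6.87 to 8.81 FPKM in day 1 controls 1 to 4, 1.77 and 2.54 in controls 5 and 6, and 0.684 to 2.01 in the day 3 controls. The left kidney thus held more Dbp than the right in mice 1 to 5 of day 1 and less in mouse 6, and less in all 6 mice of day 3. The limma fit of left against right kidneys on day 3 did not pair the kidneys of a mouse. In that fit Dbp was lower in the left (-2.56 ± 0.45, adjusted p = 0.00229), Ciart too (-3.41 ± 0.39, adjusted p = 0.000144), and Arntl was higher (2.30 ± 0.38, adjusted p = 0.00153). Sampling time was not tested.

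**Figure D2:**
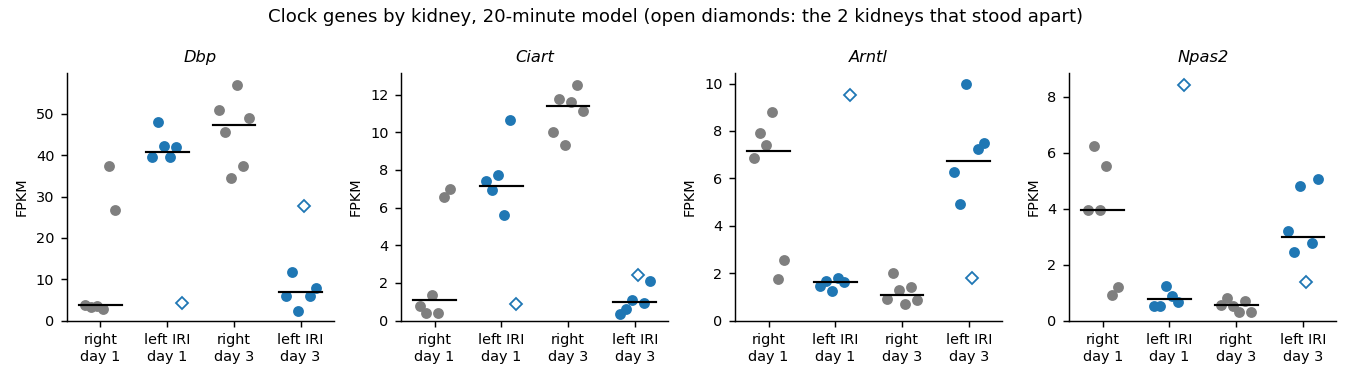
FPKM of Dbp, Ciart, Arntl and Npas2 in each right and left kidney of the 20-minute model by day (points: single kidneys, lines: medians of 6, open diamonds: the 2 left kidneys that stood apart). Apart from the diamonds, left kidneys of day 1 lie near the level of right kidneys of day 3, with Dbp medians of 40.9 and 47.4 FPKM, and left kidneys of day 3 near that of 4 right kidneys of day 1.

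Injury genes varied more within a day than between days. Krt20, a cytokeratin of intestinal and urothelial cells that the injured tubule also makes, ranged from 0.334 to 39.04 FPKM on day 1 (median 5.45) and from 1.29 to 107 on day 3 (median 1.88). The highest value of all belonged to day 3 replicate 4, and the other 5 kidneys of day 3 lay between 1.29 and 2.19. The difference was -0.38 ± 1.27 (adjusted p = 0.91, exact permutation p = 0.797, two-sided), with a 12-kidney order that overlapped fully, and -1.73 ± 1.01 without both (adjusted p = 0.247). Havcr1, which encodes KIM-1 and is made by injured proximal tubule, ranged from 1.49 to 523 FPKM (median 50.2) and from 0.664 to 728 (median 15.7), a difference of -1.005 ± 1.73 (adjusted p = 0.81, exact permutation p = 0.61, two-sided).

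On day 1, replicates 3 and 4 were the highest in both genes, with 523 and 291 FPKM of Havcr1 and 39.04 and 15.8 of Krt20. Replicates 5 and 6 were the lowest, with 3.16 and 1.49 of Havcr1 and 0.334 and 1.28 of Krt20. Lcn2, which encodes the urinary marker NGAL, had medians of 56.7 and 36.7 FPKM (-0.04 ± 1.06, adjusted p = 0.99) and Spp1, osteopontin, 1498 and 1367 (0.07 ± 0.64, adjusted p = 0.975). Clu, clusterin, had medians of 177 and 191 FPKM, Timp2 of 15.3 and 14.0 and Igfbp7 of 522 and 603. None of the 20 injured proximal tubule genes had an unadjusted p under 0.05, beside 3.06% of all genes higher and 9.87% lower. None was called without both kidneys, beside 1.14% and 3.41% of all genes. Their median was -0.06 with all kidneys and -0.70 without both.

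Among the other cytokeratins, Krt8 had medians of 72.8 and 60.9 FPKM (-0.20 ± 0.38, adjusted p = 0.835) and Krt18, its partner in simple epithelia, 17.4 and 20.2 (0.04 ± 0.45, adjusted p = 0.98). Krt7 had medians of 11.3 and 8.34 and Krt19 of 2.51 and 2.17 FPKM. Day 3 replicate 4 stood apart in Krt8 at 203 FPKM, beside 56.0 to 67.5 in the other 5. Over both days the right kidneys held 0 to 0.111 FPKM of Krt20 and 0.259 to 1.45 of Havcr1, and each left kidney lay above the Krt20 values of the controls.

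**Figure D3:**
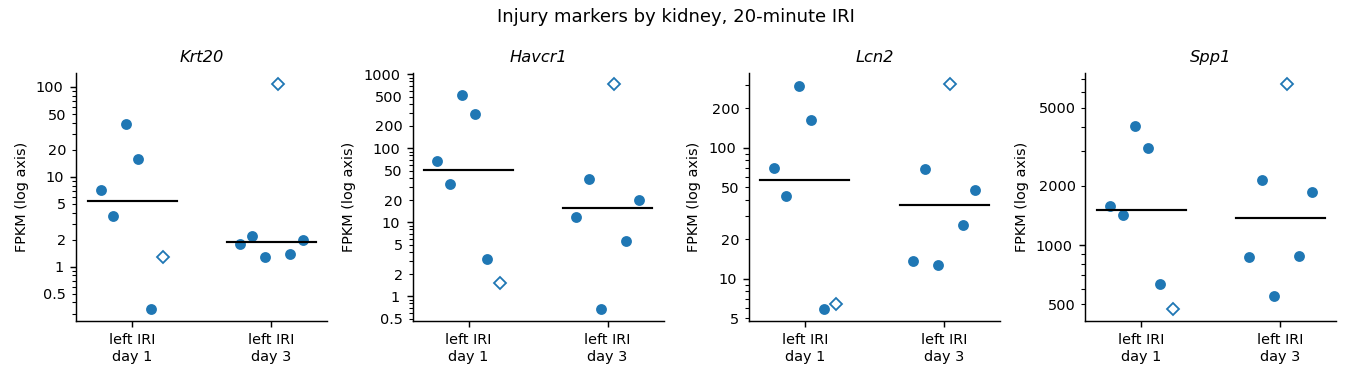
FPKM on a log axis of 4 injury genes in each left kidney after 20 minutes of ischemia by day (points: single kidneys, lines: medians of 6, open diamonds: day 1 replicate 6 and day 3 replicate 4). The kidneys of 1 day span more than the medians differ, as with Havcr1 medians of 50.2 and 15.7, and day 3 replicate 4 is the highest kidney in all 4 genes.

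Acute phase genes had a median difference of 0.60 over 19 members, of which 3 were higher on day 3 at an unadjusted p under 0.05, beside 3.06% of all genes. Without both kidneys that stood apart the median was -0.01 and 1 was called higher, beside 1.14% of all genes. C3, the central complement protein, ranged from 7.63 to 40.3 FPKM on day 1 (median 12.8) and from 17.2 to 80.8 on day 3 (median 32.3), a difference of 1.36 ± 0.46 (adjusted p = 0.303) and of 1.06 ± 0.48 without both (adjusted p = 0.146). The fibrinogen chain gene Fga had medians of 85.5 and 184 FPKM (1.38 ± 0.77, adjusted p = 0.458), and Fgb of 3.04 and 2.41 with 79.0 in day 3 replicate 4. Lbp, which binds lipopolysaccharide, had medians of 2.36 and 3.85 FPKM (0.69 ± 0.25, adjusted p = 0.315), and Saa3, a serum amyloid A gene, of 0.0524 and 1.57. The cell cycle inhibitor Cdkn1a, of the p53 target list, ranged from 4.19 to 39.6 FPKM with a median of 11.7, and from 13.3 to 82.4 with a median of 36.6 (1.47 ± 0.59, adjusted p = 0.331). It was the 1 member of 19 of that list with an unadjusted p under 0.05, where 3.06% of all genes were higher. Another member, Ccng1, had medians of 71.0 and 56.2 FPKM.

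Of 30 proximal tubule genes tested, 7 were lower and 1 higher on day 3 at an unadjusted p under 0.05, beside 9.87% and 3.06% of all genes. The median difference was -0.11, against -0.10 over all genes. Without both kidneys that stood apart 2 were called lower and 1 higher, beside 3.41% and 1.14% of all genes. Slc5a12, a lactate carrier of the brush border, ranged from 20.6 to 53.6 FPKM on day 1 (median 40.9) and from 6.33 to 26.1 on day 3 (median 19.8). The right kidneys held 33.3 to 67.6 FPKM on both days, so the day 3 left kidneys were below every control. The difference was -1.14 ± 0.32 (adjusted p = 0.30), and -1.35 ± 0.33 without both kidneys (adjusted p = 0.0195). Lrp2, the endocytic receptor megalin, had medians of 133 and 71.2 FPKM (-0.63 ± 0.22, adjusted p = 0.306), and Gatm, which makes the precursor of creatine, of 238 and 85.2 (-1.27 ± 0.45, adjusted p = 0.312). Their right kidneys held 141 to 194 and 305 to 494 FPKM. Pck1, the key enzyme of gluconeogenesis, went the other way with medians of 710.3 and 1767 FPKM (1.04 ± 0.43, adjusted p = 0.338; 1.61 ± 0.28, adjusted p = 0.00555 without both). Kap, the androgen-driven protein of mouse proximal tubule, had medians of 6801 and 7092.

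Genes of inflammatory cells showed no call in the main test, where no gene at all was called. Of 22 macrophage genes, 13 lymphocyte genes and 10 neutrophil genes tested, 0 had an unadjusted p under 0.05. Among all genes 3.06% were higher and 9.87% lower at this p, so 0 in lists this short says little. Their median differences were -0.08, -0.83 and -0.36 with all 12 kidneys and -0.57, -1.39 and -0.98 without both that stood apart. Without both, 2 macrophage genes, 1 lymphocyte gene and 0 neutrophil genes were called lower, beside 3.41% of all genes. Only 3 neutrophil genes and 0 lymphocyte genes averaged 1 FPKM or more, so the medians of these lists rest on low values. Summed FPKM had medians of 5.44 on day 1 and 4.45 on day 3 for lymphocyte genes, and of 10.9 and 10.4 for neutrophil genes. C1qa of macrophages ranged from 6.95 to 43.5 FPKM on day 1 (median 23.5) and from 17.2 to 33.2 on day 3 (median 24.5), while the right kidneys held 5.82 to 14.9. Adgre1, which encodes F4/80, had medians of 2.55 and 1.88 FPKM. Among 27 cytokine and chemokine genes 1 was lower at an unadjusted p under 0.05 (9.87% of all genes), and without both kidneys that stood apart 6 were called lower (3.41% of all genes), with a median of -1.26 against -0.38 with all 12. The monocyte attractant Ccl12 held 1.77 to 14.5 FPKM in 5 kidneys of day 1 and 0 to 0.136 in 5 of day 3, with replicate 6 of day 1 listed at 0 and replicate 4 of day 3 at 17.7. Cxcl1, a neutrophil attractant, had medians of 4.01 and 0.744 FPKM (-1.49 ± 1.22, adjusted p = 0.592).

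Of 25 matrix genes tested, 21 lay below 0, beside 9271 of all 14271 genes. The list median was -0.50 with all 12 kidneys and -0.85 without both that stood apart. At an unadjusted p under 0.05, 1 was higher and 0 lower, beside 3.06% and 9.87% of all genes. Array weights called 1 higher and 1 lower, beside 0.827% and 1.91% of all genes. Leaving out both kidneys called 1 higher and 3 lower, beside 1.14% and 3.41% of all genes. Lox, the enzyme that crosslinks collagen, had medians of 1.89 and 3.81 FPKM (1.28 ± 0.44, adjusted p = 0.307) and Col6a3 of 3.06 and 1.10 (-1.39 ± 0.84, adjusted p = 0.482). Col1a1, the main fibrillar collagen, had medians of 10.4 and 7.74 FPKM. Of the 15 endothelial genes 13 lay below 0, beside 9271 of all 14271 genes. Without both kidneys 2 were called lower, beside 3.41% of all genes. The angiopoietin receptor Tek had medians of 12.5 and 6.42 FPKM (-0.72 ± 0.31, adjusted p = 0.35) and the VEGF receptor Kdr of 13.2 and 8.35. Both were lowest of day 1 in replicate 6, at 3.70 and 5.15 FPKM. In podocyte genes, Magi2 had medians of 2.07 and 1.26, Clic5 of 25.6 and 17.7 and Wt1 of 2.101 and 3.57 FPKM.

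Markers of neighbouring tissues were present in single kidneys. Summed FPKM of the 7 urothelial genes tested ranged from 0.739 to 29.4 on day 1 and from 0.637 to 4.89 on day 3. The 6 adipose genes summed to 36.6 to 222 on day 1 and to 39.6 to 87.5 on day 3. Adipoq, a defining adipose marker, was listed at 0 or under 0.06 FPKM apart from day 1 replicates 2 (3.12) and 3 (4.31) and day 3 replicate 4 (1.60). The adrenal markers Cyp11b1 and Cyp11b2 have no value in the table, and Alb of liver lay between 1.15 and 6.57 FPKM. The part of these tissues in the results was not tested.

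Of the stress lists, Ier3, an early response gene of the AP-1 list (chromosome 17, 35821684 to 35822923), did not overlap between the days. It held 32.5 to 60.7 FPKM on day 1 (median 40.6) and 62.2 to 76.4 on day 3 (median 67.0), a difference of 0.69 ± 0.13 (adjusted p = 0.289). In the chaperone list, Hsp90b1 and Pdia4 of the endoplasmic reticulum had medians of 204 and 119, and of 61.3 and 43.5 FPKM, and 5 of 21 members were lower and 2 higher at an unadjusted p under 0.05, beside 9.87% and 3.06% of all genes. Bag3, a partner of the heat shock protein HSP70, had medians of 15.5 and 20.5. Tfrc, the transferrin receptor, had medians of 34.8 and 10.03 FPKM (-1.56 ± 0.50, adjusted p = 0.30, and -2.24 ± 0.30, adjusted p = 0.00211 without both). Phgdh, which opens serine synthesis, had medians of 10.6 and 3.45 FPKM (-1.27 ± 0.50, adjusted p = 0.326), and Adm, which encodes adrenomedullin and is induced by hypoxia, of 5.38 and 8.12 (0.62 ± 0.17, adjusted p = 0.30). Ribosomal protein and respiratory chain genes had medians of 0.08 over 26 and 0.02 over 25, beside -0.10 over all genes. Of the 26, 23 lay above 0, and of the 25, 14 did, beside 5000 of all 14271 genes. After each library was scaled to the same median, the medians were 0.16 and 0.10, beside -0.01. At an unadjusted p under 0.05, 5 of the 26 were higher, beside 3.06% of all genes. Rps27 stood at 431 and 531 FPKM and Cox7a2 at 336 and 419. Interferon-stimulated genes had no member of 20 with an unadjusted p under 0.05, beside 3.06% of all genes higher and 9.87% lower. Without both kidneys 1 of them was called lower, beside 3.41% of all genes.

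**Figure D4:**
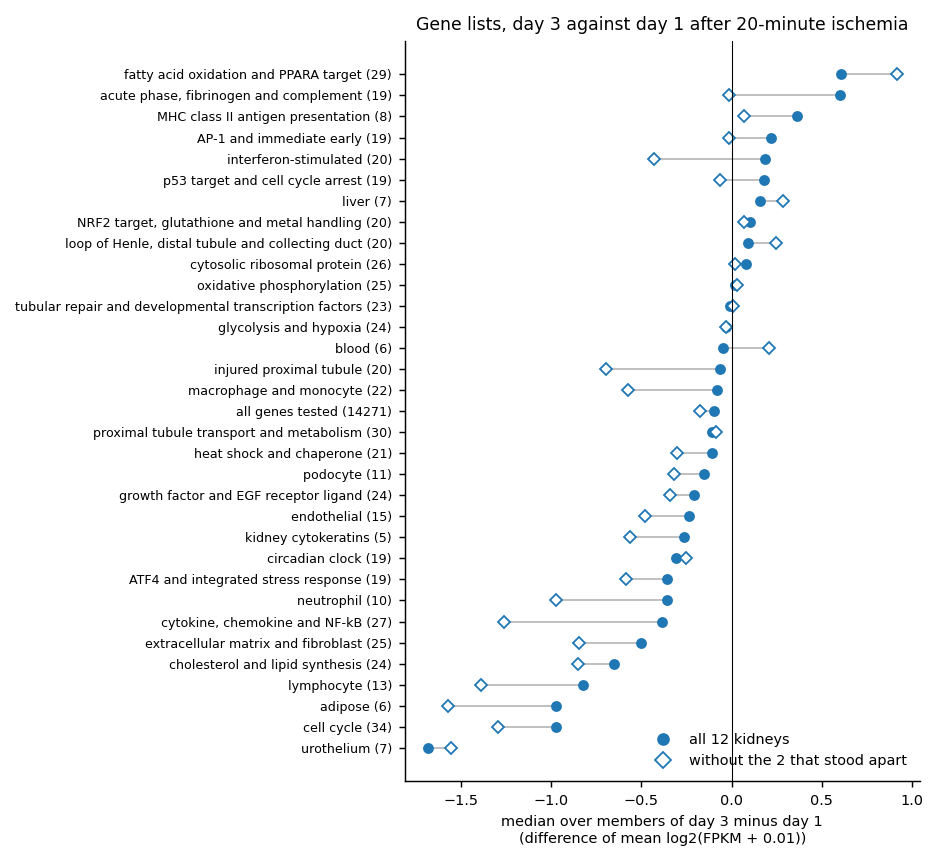
Median over the members tested (numbers in brackets) of the difference day 3 minus day 1 in mean log2(FPKM + 0.01), for the gene lists and for all genes (filled circles: all 12 left kidneys, open diamonds: without the 2 that stood apart). The adrenal cortex list, with 1 member tested, is not drawn. Fatty acid oxidation is the highest list at 0.61. Urothelium is the lowest at -1.68 and cell cycle is among the lowest at -0.97. The acute phase list goes from 0.60 to -0.01 without the 2 kidneys.

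Relative to the right kidney of the same mouse, the difference between the days again gave 0 calls of 14271 genes (percent called 0 in each direction), and 539 genes were higher and 1362 lower at an unadjusted p under 0.05 in limma. Without both mice of the kidneys that stood apart, 143 genes were called higher (1.00%) and 386 lower (2.71%) of 14267, or 214 and 241 after scaling. Of these calls 10 of 34 cell cycle genes were lower, 10 of 29 fatty acid oxidation genes higher, 6 of 24 cholesterol genes lower, and 3 clock genes higher and 9 lower. The right kidneys alone gave 0 calls of 14141 between the days (838 higher and 972 lower at an unadjusted p under 0.05), and their days did not overlap for 76 genes higher (0.537%) and 79 lower (0.559%). Without day 1 controls 5 and 6 they gave 18 higher and 15 lower.

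Against the right kidneys, 170 genes were higher (1.19%) and 63 lower (0.442%) in the left on day 1, and 333 higher (2.34%) and 247 lower (1.73%) on day 3. These fits share the left kidneys with the comparison between days. Left and right kidneys come from the same mouse, which these fits and the values below do not take into account. With the mouse as a block day 1 gave 50 higher and 29 lower, and day 3 gave 283 and 233. Of the named genes, the block lost 6 of 13 called on day 1 and 2 of 35 called on day 3. Without mouse 6 day 1 gave 568 calls, and without mouse 4 it gave 44. In cell cycle genes 3 of 34 were above the controls on day 1 and 4 on day 3, and in fatty acid oxidation genes 5 of 29 on day 1 and 13 on day 3. The fatty acid list had a median difference from the controls of 0.37 on day 1 and 0.92 on day 3, so it lay above them on both days. In cholesterol genes 1 of 24 was below the controls on day 1 and 3 on day 3, among them Idi1 (-2.18 ± 0.21, adjusted p = 4.64e-05). Cyp4a14 rose above the controls by 2.75 ± 0.49 on day 1 (adjusted p = 0.0111) and by 4.36 ± 0.33 on day 3 (adjusted p = 9.11e-06). Pdk4 was not called against the controls on day 1 (-0.13 ± 0.55, adjusted p = 0.902) and was higher by 2.81 ± 0.36 on day 3 (adjusted p = 0.000307).

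The difference between the days was then set against that of the severe model in one fit of 24 left kidneys. For 92 genes (0.643%) the difference was more positive in the mild model and for 329 (2.30%) more negative, at an adjusted p under 0.05 of 14308 genes. Without both kidneys that stood apart these counts were 230 (1.61%) and 939 (6.56%), or 448 and 686 after scaling. They ranged from 125 calls without 40-minute day 1 replicate 2 to 1507 without 40-minute day 1 replicate 6, a kidney with 8.38 FPKM of Mki67 beside 0.966 to 1.52 in the other 5. With the replicate number as a block, 36 and 137 remained as counts.

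Of 34 cell cycle genes, 15 were among the 329 and none among the 92, beside 2.30% and 0.643% of all genes. Mki67 had medians of 1.27 and 10.2 FPKM on days 1 and 3 after 40 minutes, against 3.15 and 1.55 after 20 minutes, a difference between the models of -3.35 ± 0.72 (adjusted p = 0.0212). Top2a had 2.20 and 10.5 against 3.82 and 1.63 (-3.05 ± 0.73, adjusted p = 0.0278), and Rrm2 11.9 and 34.7 against 14.96 and 5.89 (-2.52 ± 0.59, adjusted p = 0.0256). Tk1 differed by -3.23 ± 0.71 (adjusted p = 0.0226) and Plk1 by -2.30 ± 0.60 (adjusted p = 0.0409). The mild kidneys thus had the higher median on day 1 and the severe kidneys on day 3 for the first 3 of these genes. Mcm5, whose medians were 10.1 and 6.82 FPKM in the severe model, gave -1.95 ± 1.08 (adjusted p = 0.339), and -3.33 ± 0.61 without both kidneys (adjusted p = 0.0034).

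Outside the cell cycle, Slc5a12 had medians of 10.8 and 26.2 FPKM after 40 minutes and of 40.9 and 19.8 after 20 minutes (-2.37 ± 0.48, adjusted p = 0.0193). It was 1 of 6 of the 30 proximal tubule genes that differed in this direction, beside 2.30% of all genes. The desaturase gene Scd1 had medians of 3.64 and 7.91 against 48.0 and 36.7 (-1.90 ± 0.50, adjusted p = 0.0407). Of 24 cholesterol and lipid synthesis genes 5 were called in this direction, beside 2.30% of all genes. Of the clock genes 4 of 19 were called in this direction, beside 2.30% of all genes. Ciart stood at -3.78 ± 0.84 (adjusted p = 0.023) and Dbp at -2.89 ± 0.79 (adjusted p = 0.048). Adm differed by 1.53 ± 0.31 (adjusted p = 0.0193) and Ier3 by 0.75 ± 0.17 (adjusted p = 0.0226). Of 29 fatty acid oxidation genes 0 were called, beside 0.643% of all genes more positive and 2.30% more negative. At such shares, 0 calls do not show that the models changed alike. Without both kidneys that stood apart 4 were more positive in the mild model and 0 more negative, beside 1.61% and 6.56%. Cyp4a14 (-0.80 ± 0.85, adjusted p = 0.663) had medians of 87.2 and 682 FPKM in the severe model beside 251 and 1384. Of the injury genes, Krt20 (0.71 ± 1.39, adjusted p = 0.83) had medians of 239 and 93.1 FPKM after 40 minutes beside 5.45 and 1.88, and Havcr1 (1.07 ± 1.88, adjusted p = 0.809) 752 and 151 beside 50.2 and 15.7.

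**Figure D5:**
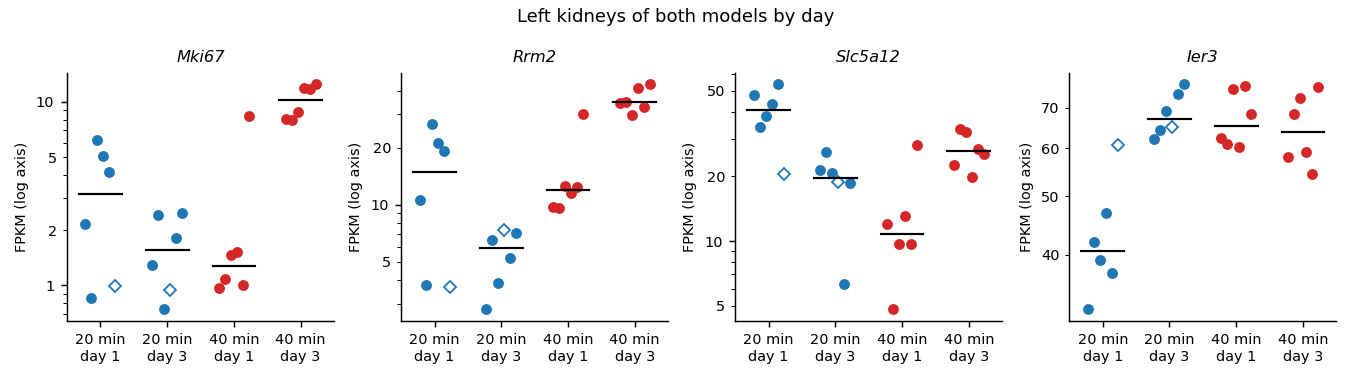
FPKM on a log axis of Mki67, Rrm2, Slc5a12 and Ier3 in each left kidney after 20 minutes (blue) and 40 minutes (red) of ischemia by day (points: single kidneys, lines: medians of 6, open diamonds: the 2 mild kidneys that stood apart). Mki67 medians go from 3.15 to 1.55 in the mild and from 1.27 to 10.2 in the severe model, and 1 severe kidney of day 1 lies with those of day 3 at 8.38.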

How the data were processed

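Cortex RNA of 24 mice was sequenced by the authors in 48 libraries after mRNA enrichment, and reads were filtered with FastQC 0.11.7 and aligned to GRCm38 with HISAT2 2.1.0. Expression was calculated with Ballgown, and FPKM of each Ensembl transcript were deposited. Of 33953 transcripts 33871 were found in GENCODE M21. FPKM was summed per symbol (14320 features). Each transcript reaches 0.5 FPKM in a library, so genes below that are not seen. Whole reads could not be recovered: 35.5% to 51.1% of the values of genes tested for it lay within 0.1 of a whole read, so the depth in reads is unknown.

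Genes that averaged 0.01 FPKM or more over the compared kidneys were fitted on log2(FPKM + 0.01) with limma 3.58.1 in R 4.3.3 (eBayes with trend). With 0.01 added, a value listed at 0 lies far below the others on this scale. Genes with such values can therefore show large differences and spreads. The samples were grouped by their titles. The day was compared in left kidneys, in left-minus-right differences and in right kidneys, with the model as an interaction, which was called at an adjusted p under 0.05 alone. Other pseudocounts, filters, scaling, weights, blocks, transcripts and single libraries left out were tried. Leaving out both kidneys that stood apart, the day 1 controls 5 and 6 and all alternatives of left against right were chosen after seeing the data. The script was tested on simulated data.

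Members and gene lists were chosen with earlier results of these data known. The rule named the 10 largest rises and falls among called genes without overlap and with at least 1 FPKM (none was called), from each list the 3 genes of lowest p, the cytokeratins and injury markers, and members that show a list's range. Some of the listed genes are not described. Promoter windows are the first listed of each gene in RefSeq. Figures were drawn with matplotlib 3.10.9 in Python 3.11.15.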

Additional observations from a re-analysis of the deposited data

Results flagged for a closer look

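A kidney is named here where its gap to the nearest of the other 5, divided by the range of its group, passed Dixon's critical value. Gap and range were taken on the log2 scale of the fits, while the values below are given in FPKM. In groups with values listed at 0, the flags therefore depend on the amount added before the log was taken. Chance flags about 1 in 20 groups. Over 102 named genes and both days (204 groups) there were 40 such values, 20 of them in day 1 replicate 6 and 15 in day 3 replicate 4.

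Day 1 replicate 6 was the lowest kidney of its day, in FPKM, for Dbp at 4.21 (others 39.6 to 48.1), Ciart at 0.902 (others 5.63 to 10.6), Per3 at 1.47 (others 4.72 to 6.29), Mcm5 at 0.462 (others 5.83 to 20.9), Dtl at 0 (others 1.17 to 4.32), Ccnd1 at 25.6 (others 89.2 to 130), Dhcr7 at 3.34 (others 7.44 to 9.88) and Srebf1 at 3.13 (others 6.38 to 9.08). It was also the lowest for Ccng1 at 49.8 (others 68.1 to 75.3), Ccl12 at 0 (others 1.77 to 14.5), Adgre1 at 0.478 (others 1.92 to 3.37), Col6a3 at 0.218 (others 2.43 to 8.28), Tfrc at 12.5 (others 30.4 to 49.6), Tek at 3.7 (others 10.7 to 15.2), Kdr at 5.15 (others 10.5 to 14.4) and Clic5 at 15.2 (others 23.2 to 29.8). Its values were the highest of the day for Arntl at 9.51 (others 1.27 to 1.8), Npas2 at 8.43 (others 0.508 to 1.24), Acot2 at 86.3 (others 18.1 to 25.3) and Cpt1a at 216 (others 106 to 133).

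Day 3 replicate 4 had the highest FPKM of its day for Mcm2 at 10.7 (others 3.41 to 4.67), Dtl at 2.38 (others listed at 0), Pcna at 47.3 (others 21 to 27.1), Sqle at 45.8 (others 14 to 18.2), Krt8 at 203 (others 56 to 67.5) and Krt20 at 107 (others 1.29 to 2.19). The same held for Ccl12 at 17.7 (others 0 to 0.136), Cxcl1 at 38.4 (others 0.457 to 1.56), Col4a2 at 58.7 (others 33.2 to 37) and Adipoq at 1.6 (others 0 to 0.0552). It had the lowest values for Cyp4a14 at 358 (others 1110 to 1540), Cyp4a10 at 336 (others 1040 to 1200), Ehhadh at 266 (others 621 to 810), Cpt1a at 99.7 (others 169 to 199) and Cox7a2 at 345 (others 415 to 454).

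Day 1 replicate 2 was the lowest of its day for Tuba4a at 20.2 (others 36 to 42.2). Day 1 replicate 2 was the highest of its day for Igfbp7 at 664 (others 482 to 541). Day 3 replicate 3 was the lowest of its day for Adgre1 at 0.632 (others 1.58 to 2.3). Day 3 replicate 5 was the lowest of its day for Slc5a12 at 6.33 (others 18.7 to 26.1). Day 3 replicate 5 was the highest of its day for Krt7 at 15.6 (others 7.74 to 9.75). What sets these kidneys apart was not tested.

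In the interaction of day and ischemia time over 24 left kidneys, 18 of the named genes differed between the models at an adjusted p under 0.05 in limma. On the log2 scale the mild minus severe difference was negative for Dbp (-2.89), Tef (-1.46), Ciart (-3.78), Per3 (-1.69), Stmn1 (-1.44), Tk1 (-3.23), Rrm2 (-2.52), Mki67 (-3.35), Top2a (-3.05), Plk1 (-2.30), Nsdhl (-0.86), Scd1 (-1.90), Slc5a12 (-2.37), Hsp90b1 (-0.89) and Arhgef39 (-2.34). It was positive for Ier3 (0.75), Adm (1.53) and Kctd17 (1.27). Stmn1 binds tubulin, Tef is a PAR bZIP factor of the clock output and Nsdhl is a sterol dehydrogenase.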

How the results depend on the processing

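The main comparison gave 0 calls under every pseudocount, filter, scaling, robust and block setting, and 391 with array weights, 1 with the most abundant transcript, 649 without both kidneys that stood apart and 517 with scaling added. Leaving out single kidneys gave 0 to 187. Left-to-right differences gave 208 with weights, 529 without both, 455 with scaling added and 0 to 153 without single mice. Right kidneys gave 14 with weights, 33 without day 1 controls 5 and 6 and 0 to 18 without single kidneys. The 421 calls between the models became 2547 with weights, 173 with the replicate block, 1169 without both and 1134 with scaling added, and 125 to 1507 without single kidneys. Left against right kidneys on day 1 gave 233 calls, and 106 at a pseudocount of 1 FPKM, 563 with weights, 79 with the mouse as a block and 44 to 568 without single mice. On day 3 it gave 580, and 272 at a pseudocount of 1 FPKM and 413 to 665. The replicate numbers did not pair the days: same-numbered left kidneys correlated by -0.311 to 0.449 and the own number was highest for 1 of 6, and the replicate block gave 0 calls. The causes were not tested. Of the 102 named genes, none of which passed, the sign of the difference turned with equal median scaling for Nr1d1 (0.067), Plk1 (0.048), Cd36 (0.066), Lcn2 (0.043) and Clu (0.085). It turned with array weights for Nr1d1 (0.020), Plk1 (0.11), Krt18 (-0.063), Spp1 (-0.34) and C1qa (-0.011). It turned with the most abundant transcript for Per1 (4.76), Ccnb1 (0.35), Dhcr7 (0.55), Cd36 (0.28), Clu (0.0029) and Wt1 (-0.36). It turned with both kidneys left out for Per1 (0.12), Krt18 (-0.35), Spp1 (-0.68), Fgb (-0.33) and C1qa (-0.15). It turned with both left out and scaling for Per1 (0.26), Nr1d1 (0.060), Plk1 (0.083), Cd36 (0.13), Krt18 (-0.21), Spp1 (-0.54), Fgb (-0.18) and C1qa (-0.0061). Leaving out single kidneys gave differences of -0.31 to 0.059 for Per1, -0.12 to 0.10 for Nr1d1, -0.23 to 0.22 for Plk1, -0.80 to 0.42 for Ccnb1, -0.077 to 0.094 for Cd36, -0.49 to 0.048 for Krt8, -0.22 to 0.38 for Krt18, -1.38 to 0.25 for Krt20, -0.62 to 0.52 for Lcn2, -0.39 to 0.32 for Clu, -0.36 to 0.37 for Spp1, -0.19 to 1.07 for Fgb and -0.12 to 0.41 for C1qa.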
